A study of Mus musculus with 12 samples.

Results

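The comparison described here sets Paneth cells of wild-type mice against the other cells sorted from the same small-intestinal crypts. It rests on 6 of the 12 bulk RNA-seq libraries in the count table, 3 of Paneth cells (WT_PC) and 3 of non-Paneth cells (WT_nonPC), which were chosen by the genotype and cell fraction that the sample titles and column names give. The genotype field of the sample records was not used, because it calls every Paneth library WT and every non-Paneth library GRKO. The other 6 libraries hold the same sorts from GRvillinKO mice (GRKO), in which the glucocorticoid receptor gene Nr3c1 is deleted in villin-expressing epithelial cells. They serve here as a second pair of fractions. They also entered the fit behind the WT comparison, which took its filter, scaling and spread from all 12 libraries. All animals were untreated C57BL/6J mice, used at 8 to 12 weeks according to the methods of the study, and the records do not say whether the WT mice carried a floxed allele. The Paneth gate took CD24+ cKIT+ events of medium-high side scatter and left out those with CD31, CD45 or TER119. How non-Paneth cells were gated is not stated in the sources, and that fraction is a mixture of crypt cells.

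Paneth cells sit at the base of the crypts, between the stem cells. They fill large granules with lysozyme, alpha defensins and other antimicrobial proteins, and they carry an extensive rough endoplasmic reticulum (ER) and Golgi apparatus to make them. They also present Wnt, EGF and Notch ligands to neighbouring stem cells. The other crypt cells include stem cells, dividing progenitors, young enterocytes that build an absorptive brush border, goblet cells that secrete mucus, hormone-producing enteroendocrine cells and chemosensory tuft cells.

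The 6 libraries held between 11126297 and 15369985 counts. Lyz1 and the Defa genes took 42.2% to 46.9% of all counts in the Paneth libraries and 0.0348% to 0.139% in the non-Paneth libraries. A share of this size lowers the CPM (counts scaled to a common library total) of every other gene, so levels are given as CPM divided by a library's TMM factor (scaled CPM), which assumes that most genes do not differ. The factors lay between 0.656 and 0.826 in Paneth cells and between 1.20 and 1.22 in non-Paneth cells. Log2 fold changes are Paneth over non-Paneth with their standard error (SE), and on this scale their median over the 13057 genes tested was 0.01. With library totals only it was −0.68. Paneth replicate 1 stood apart from the other Paneth libraries, with 2.48% of counts on mitochondrial genes against 1.26% and 1.19%, and with the highest sum of ribosomal protein transcripts. In bulk libraries of this kind, fewer cells of a type and less RNA per cell cannot be told apart.

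The given markers separated the fractions in the labelled direction. Lyz1, which encodes lysozyme, was found at 132250, 233010 and 188170 scaled CPM in the Paneth cells and at 102, 333 and 107 in the non-Paneth cells, in replicates 1, 2 and 3 in that order here and below. The alpha defensin gene Defa24 was found at 170350, 213860 and 179580 scaled CPM in the Paneth cells and at 133, 377 and 94 in the non-Paneth cells. The granule protease gene Mmp7 was found at 4840, 9882 and 7236 scaled CPM in the Paneth cells and at 16.7, 53.1 and 28.4 in the non-Paneth cells. For these genes every Paneth library lay above every non-Paneth library, and among the non-Paneth libraries replicate 2 held the most of each. Vil1, the gene of the brush border protein villin, showed the opposite order, at 340.0, 523 and 440.3 scaled CPM in the Paneth cells and at 2404, 2555 and 2465 in the non-Paneth cells. Of the surface proteins used for the gate, Cd24a had a log2 fold change of 3.65 (SE 0.219, adjusted p = 7.04e-09) and Kit, which encodes cKIT, one of 3.92 (SE 0.378, adjusted p = 8.48e-06), while Ptprc, which encodes CD45, was found at 0.285, 4.08 and 5.68 scaled CPM in the Paneth cells and at 0.318, 0.407 and 0.16 in the non-Paneth cells, highest in Paneth replicates 2 and 3, and did not pass the test (adjusted p = 0.113), though it did with the replicate number as a block (adjusted p = 1.02e-04). Pecam1, which encodes CD31, had too few counts to be tested.

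Lists of markers placed the 2 fractions among the cell types of the crypt. Of the Paneth markers 11 of 11 were higher in Paneth cells, and of the enterocyte markers 12 of 12 were lower, where 24.0% of all genes tested were called higher and 26.7% lower. The count of enterocyte markers lower was 10 with DESeq2 and 8 with the WT libraries only and the replicate number as a block. The enterocyte markers summed to 1054, 3188 and 1225 scaled CPM in the Paneth libraries and to 33930, 33568 and 33899 in the non-Paneth libraries. Paneth replicate 2 thus held more of them than both other Paneth libraries together, and it was the highest Paneth library for each of the 12 markers. Stem cell markers were higher in Paneth cells in 10 of 10 cases, with a median log2 fold change of 1.02, and with library totals only in 4. Lgr5, the stem cell receptor for R-spondins, was found at 106, 104 and 119 scaled CPM in the Paneth cells and at 37.3, 37.5 and 31.9 in the non-Paneth cells. Proliferation markers lay close together, with 3 of 12 higher and a median of 0.17, and their direction turned with library totals only, where 11 were lower. The count of proliferation markers higher was 0 without Paneth replicate 3 and 5 without non-Paneth replicate 1 or 3, with a median of 0.30 without non-Paneth replicate 3.

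Tuft cell transcripts moved with the Paneth fraction. All 8 tuft markers with enough counts were higher in Paneth cells, with a median log2 fold change of 5.85. The list of 9 summed to 204, 404 and 556 scaled CPM against 4.07, 10.9 and 7.21. At such low non-Paneth sums the filter favours markers that are high in Paneth cells, so nothing is read from the count of 8. Without a filter on low counts 9 of 9 were higher, with a median of 5.88. Trpm5, a cation channel of taste-like cells, was found at 72.2, 124 and 153 scaled CPM in the Paneth cells and at 1.59, 3.19 and 4.06 in the non-Paneth cells. The tuft sum was lowest in Paneth replicate 1 and highest in replicate 3. Goblet cell markers split, with Spink4 (4.97), Ccl9 (4.59) and the disulfide isomerase gene Agr2 (1.73) higher, and Zg16 (-4.54), the chloride channel regulator gene Clca1 (-3.69) and Fcgbp (-3.04) lower. The mucin gene Muc2 itself was found at 1835, 1740 and 1538 scaled CPM in the Paneth cells and at 837, 1470 and 689 in the non-Paneth cells and did not pass the test (adjusted p = 0.0601, and 0.0257 with the replicate number as a block). Among 10 enteroendocrine markers 5 were lower and 1 was higher, the somatostatin gene Sst, at 24.6, 31 and 12.2 scaled CPM in the Paneth cells and at 0.89, 4.12 and 3.42 in the non-Paneth cells. The enteroendocrine falls numbered 3 without Paneth replicate 2 or 3 or non-Paneth replicate 1 or 2, and with the replicate number as a block 3 markers were higher and 6 lower. Of 12 markers of immune and stromal cells 4 had enough counts to be tested, and the list summed to 19.2, 20.8 and 18.8 scaled CPM against 11.6, 10.5 and 7.16. Most of the Paneth sum came from Lyz2, the second lysozyme gene (5.99), while Vim (-1.17) and Itgam (-0.90) were lower, and both lost the call without Paneth replicate 3 (adjusted p = 0.0751 and 0.0519) or non-Paneth replicate 2 (0.0532 and 0.101). Whether reads of the far more abundant Lyz1 were counted for Lyz2 was not tested.

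**Figure D1:**
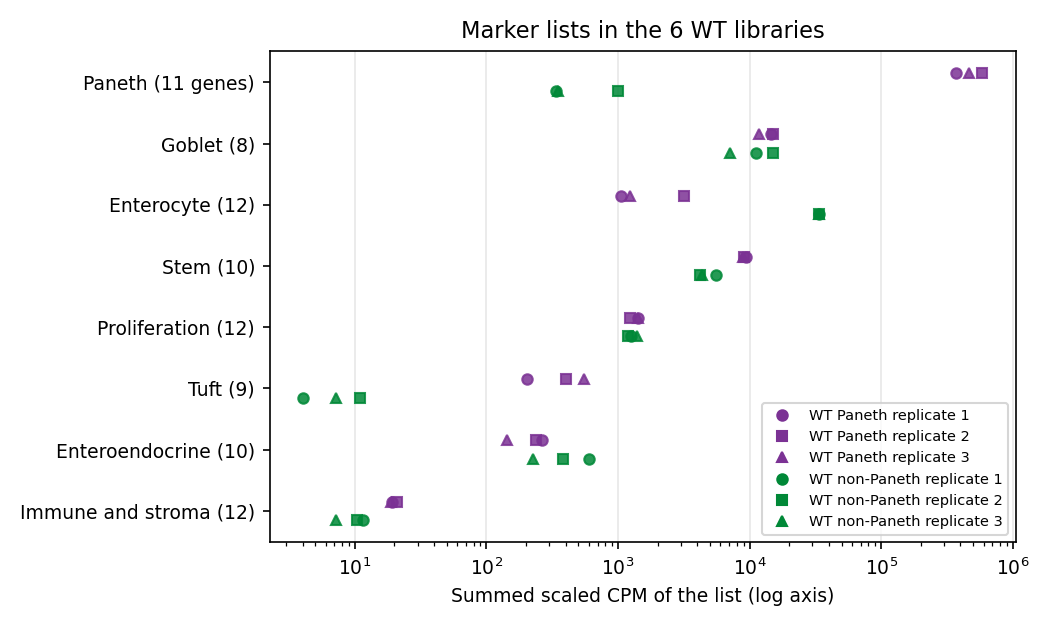
Summed scaled CPM of each marker list (horizontal log axis) in the 3 WT Paneth libraries (purple) and the 3 WT non-Paneth libraries (green), with 1 symbol per replicate. Paneth and tuft markers lie higher in all Paneth libraries and enterocyte markers lower, goblet sums overlap, and the proliferation sums lie close together.

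Across the whole table, 6624 of 13057 genes tested (50.7%) differed between the fractions by edgeR at an adjusted p under 0.05. Of these 3133 were higher (24.0%) and 3491 lower (26.7%) in Paneth cells. With library totals only the split was 1097 higher (8.40%) and 7895 lower (60.5%), so that the direction of small differences depends on the scale. The libraries of the 2 fractions did not overlap for 7512 genes (57.5%). Among the genes called, 1546 were higher and 1796 lower by more than 1 on the log2 scale, and 442 were higher and 488 lower by more than 3. Outside Lyz1 and the Defa genes, the largest rises at 50 CPM or more included the pentraxin gene Mptx2 (10.59), 4 Defa pseudogenes (Defa-ps1, Defa-ps6, Defa-ps7 and Defa-ps18, 9.63 to 10.13), the angiogenin gene Ang4 (9.16), the intelectin gene Itln1 (9.12), the colipase gene Clps (8.47), Samd5 (8.45) and the hyaluronan-binding protease gene Habp2 (8.44). Reads of the Defa pseudogenes and of the Defa genes are hard to tell apart, so the values of the pseudogenes are uncertain. The largest falls were led by the intestinal alkaline phosphatase gene Akp3 (-7.77), the nucleoside transporter gene Slc28a1 (-7.51), the scavenger receptor gene Stab1 (-6.81), Gdpd2 (-6.76), the laminin gene Lama3 (-6.74), Nlrp9b (-6.69), the thymidine phosphorylase gene Tymp (-6.41), the lactate and nicotinate transporter gene Slc5a12 (-6.32), the lactase gene Lct (-6.27) and Clca4a (-6.22). Akp3 varied among the non-Paneth libraries, at 251, 103 and 38.1 scaled CPM, and Lct was found at 1.33, 49.5 and 6.15 in the Paneth libraries, so that both rest on uneven values.

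**Figure D2:**
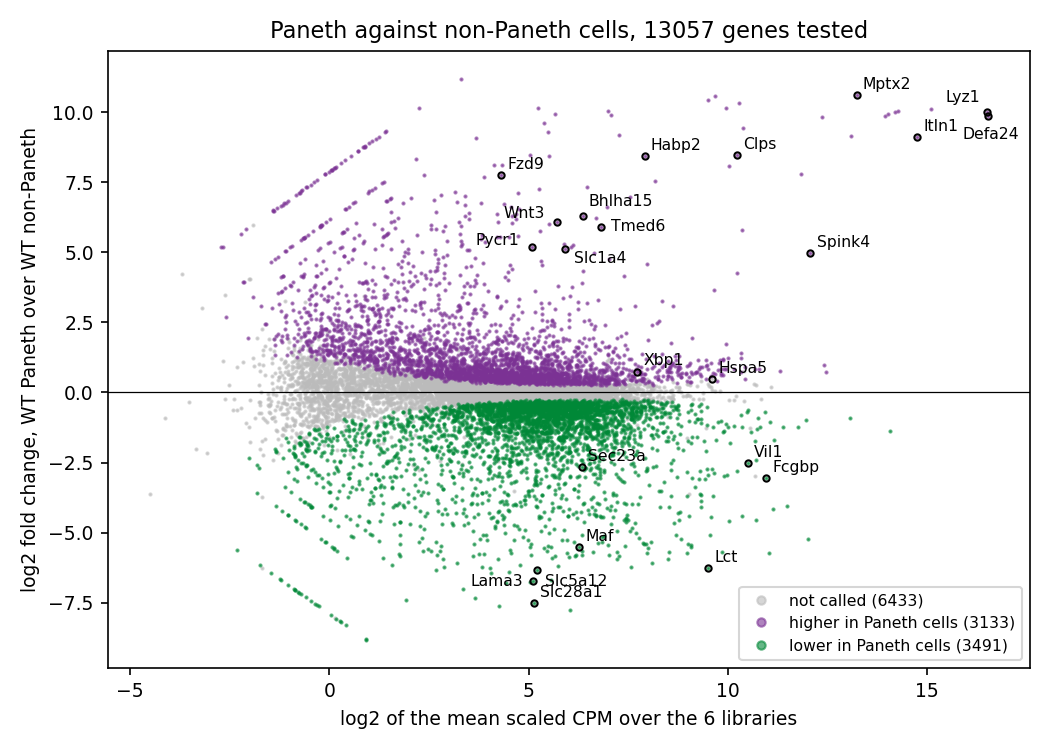
Each point is 1 of 13057 genes, with the log2 of its mean scaled CPM over the 6 libraries on the horizontal axis and its log2 fold change, WT Paneth over WT non-Paneth, on the vertical axis. Purple and green points passed an adjusted p of 0.05 (3133 higher and 3491 lower), the straight rows of points on the left are genes with few or no counts in 1 fraction, and genes of the text are named.

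Secreted products other than Lyz1 and the Defa genes held large differences. Of 37 granule and antimicrobial genes listed, 31 were tested. Of these 21 were higher (67.7%) and 3 lower (9.68%) in Paneth cells, beside 24.0% and 26.7% of all genes. The count of falls was 5 with the replicate number as a block. The median log2 fold change of the list was 5.80 against 0.01 for all genes. Itln1, which encodes a lectin for microbial sugars, was found at 36087, 74615 and 54357 scaled CPM in the Paneth cells and at 55.6, 167 and 74.3 in the non-Paneth cells, and Mptx2 at 13658, 26676 and 17203 scaled CPM in the Paneth cells and at 6.74, 26 and 4.49 in the non-Paneth cells. The phospholipase A2 genes Pla2g2a and Pla2g2f had log2 fold changes of 7.55 and 6.22. Digestive products of the pancreatic kind were among them, with the colipase gene Clps at 1892, 3002 and 2293 scaled CPM in the Paneth cells and at 5.72, 11.5 and 3.1 in the non-Paneth cells and the lipase-related gene Pnliprp2 at a log2 fold change of 8.07. The regenerating lectins divided. Reg4 had a log2 fold change of 5.80, while Reg1 (-4.52) and Reg3a (-4.77) were lower, and the bactericidal lectin genes Reg3b (-2.96, adjusted p = 0.0763) and Reg3g (-0.30, adjusted p = 0.746) did not pass the test. Reg3g was found at 310.1, 2507 and 849 scaled CPM in the Paneth cells and at 906, 2261 and 1350 in the non-Paneth cells, and the values overlap. Reg3b was called as lower with the replicate number as a block (-4.30, adjusted p = 0.0102), without Paneth replicate 2 (-5.81, adjusted p = 0.00103), with library totals only (-3.82, adjusted p = 0.0227), with DESeq2 (-2.97, adjusted p = 0.00791) and without a filter on low counts. Pigr, which carries immunoglobulin A across the epithelium, fell by 0.97 on the log2 scale.

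Proteins bound for secretion enter the ER through the Sec61 channel, lose their signal peptide, are folded with the help of chaperones and disulfide isomerases and are checked before they leave. Of 29 genes of translocation and signal peptide cleavage, 22 were higher (75.9%) and 2 lower (6.90%) in Paneth cells. Of all genes 24.0% were higher and 26.7% lower. The translocation list had a median of 0.73, and with library totals only its counts were 9 and 6. Sec11c, a catalytic subunit of signal peptidase, was found at 244, 279 and 239 scaled CPM in the Paneth cells and at 62.4, 61.8 and 65.4 in the non-Paneth cells, and the translocon-associated Ssr4 at 403, 468 and 329 scaled CPM in the Paneth cells and at 110.4, 106 and 111 in the non-Paneth cells. Both were named for their size and for fractions that do not overlap. Genes of N-glycosylation were higher in 18 (58.1%) and lower in 1 (3.23%) of 31 cases, with a median of 0.43. That direction turned with library totals only, where 1 was higher and 7 lower.

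The folding machinery was uneven. Of 46 genes, 23 were higher and 3 lower, with a median of 0.46, and with library totals only 14 were higher and 16 lower. The count of falls was 0 without non-Paneth replicate 2 or 3 and 1 without Paneth replicate 1 or 2. Pdia2, a disulfide isomerase best known from the pancreas, was found at 40.5, 76.7 and 40.7 scaled CPM in the Paneth cells and at 0.509, 0.349 and 0.267 in the non-Paneth cells. Fkbp11, a prolyl isomerase of secretory cells, was found at 77.3, 82 and 71.9 scaled CPM in the Paneth cells and at 3.05, 4.18 and 2.72 in the non-Paneth cells, and Qsox1, a sulfhydryl oxidase, at 473, 715 and 590.1 scaled CPM in the Paneth cells and at 57.9, 71.5 and 53.6 in the non-Paneth cells. Their log2 fold changes were 7.12 (SE 0.555, adjusted p = 1.71e-06), 4.53 (SE 0.244, adjusted p = 4.84e-09) and 3.28 (SE 0.177, adjusted p = 3.08e-09). P4hb, an abundant disulfide isomerase, was found at 2033, 4134 and 3466 scaled CPM in the Paneth cells and at 1756, 1782 and 2155 in the non-Paneth cells with a log2 fold change of 0.76 (SE 0.208, adjusted p = 0.0067), and the call was lost without Paneth replicate 2 (adjusted p = 0.0535). Hspa5, the major ER chaperone of the Hsp70 family, was found at 594, 1053 and 1063 scaled CPM in the Paneth cells and at 558, 598 and 784 in the non-Paneth cells and did not pass the test (adjusted p = 0.0997), but passed it with the replicate number as a block (0.45, adjusted p = 0.0211). Calr and Hsp90b1, further chaperones of the ER, had log2 fold changes of 0.05 and -0.07 and did not pass either, and the lectin chaperone gene Canx fell by 0.50, a call lost without non-Paneth replicate 2 (adjusted p = 0.055) or 3 (0.105).

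Stress of the ER is signalled by the sensors Ire1, Perk and Atf6 and by transcription factors below them. Of 28 genes of this response 11 were higher (39.3%) and 7 lower (25.0%), beside 24.0% and 26.7% of all genes. The share of falls was thus near that of all genes. With library totals only the counts were 5 and 14, so that the balance turned. Ern2, the form of Ire1 found in mucosal secretory cells, was found at 57.8, 86.3 and 82.6 scaled CPM in the Paneth cells and at 11.4, 16 and 11.1 in the non-Paneth cells, with a log2 fold change of 2.55 (SE 0.211, adjusted p = 1.73e-07). Xbp1, the factor activated by Ire1, was found at 210.5, 310.3 and 269.7 scaled CPM in the Paneth cells and at 139.9, 164 and 167 in the non-Paneth cells, a log2 fold change of 0.74 (SE 0.142, adjusted p = 4.50e-04) that did not pass the test with library totals only. The spliced form of Xbp1 cannot be told from counts per gene. Of the membrane-bound factors of the Creb3 family, Creb3l4 was higher (2.80) and Creb3l3, a factor of liver and enterocytes, lower (-5.80). Ddit3, which encodes the stress factor Chop, fell by 1.51, from 17.5, 9.82 and 9.56 scaled CPM in the non-Paneth to 5.32, 2.97 and 4.5 in the Paneth libraries. Among 36 genes of ER-associated degradation 11 were higher and 5 lower (with library totals only 5 and 24, which turns the balance), and the falls numbered 2 without any 1 of the non-Paneth libraries. The share of rises was 30.6%, beside 24.0% of all genes, and Derl3 (4.44), Herpud1 (2.13) and Edem2 (1.81) were among those that rose.

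Promoters were read beside these values, to show which chaperone genes carry the classical ER stress response element, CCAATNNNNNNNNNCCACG. It was 1 of 8 motifs searched on both strands in RefSeq promoter windows of GRCm38.p6, which run from 250 bases before to 50 after a gene's start. The others were the unfolded protein response element TGACGTGG, the amino acid response element TGATGCAA, the E-box CATATG known for Bhlha15 (Mist1), the lysosomal E-box TCACGTGA, the Hnf4 motif CAAAGTCCA, the cAMP response element TGACGTCA and the sterol response motif TCACCCCAC. The ER stress response element was found in 39 of 32851 windows (0.119%) and in 8 of the 51 windows of ER folding genes (15.7%), which belong to 8 of the 41 list members with a window. Derl3 and Syvn1 of the degradation list carry it too. Of these carriers, the first 4 below were higher in Paneth cells, with log2 fold changes of 1.12, 1.06, 1.98 and 4.44, and the last 4 were not. Capitals mark the fixed bases of the element, which reads in reverse where CGTGG comes first.
Pdia6 (chr12:17266471-17266529, plus strand): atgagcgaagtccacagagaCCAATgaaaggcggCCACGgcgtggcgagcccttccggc
Dnajc3 (chr14:118937807-118937865, plus strand): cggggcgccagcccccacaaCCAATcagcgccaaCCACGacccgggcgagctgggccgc
Ero1b (chr13:12565662-12565720, plus strand): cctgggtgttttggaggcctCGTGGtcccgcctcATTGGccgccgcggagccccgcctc
Derl3 (chr10:75893222-75893280, plus strand): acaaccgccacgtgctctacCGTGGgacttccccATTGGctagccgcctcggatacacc
Hspa5 (chr2:34772005-34772063, plus strand): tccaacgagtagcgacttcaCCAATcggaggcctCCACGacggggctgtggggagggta
Calr (chr8:84847055-84847113, minus strand): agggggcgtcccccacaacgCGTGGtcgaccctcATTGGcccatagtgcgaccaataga
Hsp90b1 (chr10:86705618-86705676, minus strand): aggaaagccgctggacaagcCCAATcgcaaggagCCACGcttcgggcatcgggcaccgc
Canx (chr11:50325780-50325838, minus strand): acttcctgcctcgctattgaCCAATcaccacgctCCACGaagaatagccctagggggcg
Carriers of the element were thus found on both sides of the threshold. The carriers not shown, Creld2 (0.43) and Syvn1 (-0.08), did not pass the test, though Creld2 did with the replicate number as a block (adjusted p = 0.0102). Hsp90b1 holds the element at 2 places, of which 1 is shown. A match describes these letters only and does not show that a factor binds there.

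From the ER, cargo leaves in COPII vesicles and resident proteins return in COPI vesicles. The COPII list held both directions in shares near those of all genes (24.0% higher and 26.7% lower), at 24.1% and 29.6%, with 13 higher and 16 lower of 54 and a median of 0.02, while library totals only gave 5 and 37. Tmed6, a cargo receptor of the p24 family, was found at 183, 263 and 217 scaled CPM in the Paneth cells and at 3.43, 3.72 and 3.85 in the non-Paneth cells, a log2 fold change of 5.91 (SE 0.244, adjusted p = 3.73e-10). Its relative Tmed3 rose by 2.41 and the transport receptor gene Ergic1 by 1.65. The coat component Sec23a went the other way, at 14.6, 28.2 and 23.2 scaled CPM in the Paneth cells and at 125, 134 and 160.4 in the non-Paneth cells, as did Sec16b (-1.41) and Tfg (-1.68), which organise the sites of exit. Of 20 COPI genes 4 were higher and 4 lower (both shares below those of all genes), and with library totals only 2 and 16. Without Paneth replicate 3, 2 were higher and 1 was lower, and without non-Paneth replicate 2 or 3, 1 was lower. Copz2, the less common zeta subunit of the coat, was found at 32, 46.4 and 46.1 scaled CPM in the Paneth cells and at 0.509, 0.523 and 0.16 in the non-Paneth cells, while Copz1, the common form, had a log2 fold change of -0.36 (adjusted p = 0.0145), a call lost without Paneth replicate 3 or any 1 of the non-Paneth libraries (adjusted p between 0.0553 and 0.132). Kdelr3, a receptor that returns ER proteins, rose by 2.63.

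The final steps, from granule to membrane, showed more falls than rises, with 15 higher and 29 lower of 69 genes and a median of -0.44. The share of rises, 21.7%, was near the 24.0% of all genes, and the share of falls was above their 26.7%. With library totals only the counts were 6 and 45, and without non-Paneth replicate 2 the median was -0.27. Among the genes that rose, Rab3d, a small GTPase on zymogen granules, was found at 196, 334 and 307 scaled CPM in the Paneth cells and at 32.1, 41.2 and 33.8 in the non-Paneth cells. Sytl2 was found at 94.8, 174 and 159.9 scaled CPM in the Paneth cells and at 27.2, 30.6 and 16.4 in the non-Paneth cells and the calcium sensor Syt7 at 22.8, 46.5 and 45.8 scaled CPM in the Paneth cells and at 8.2, 10.9 and 4.33 in the non-Paneth cells, with log2 fold changes of 2.53 and 2.30. For all 3, which were named for fractions that do not overlap, Paneth replicate 1 was the lowest Paneth library. Pcsk5, a proprotein convertase, was found at 13.4, 14.5 and 8.28 scaled CPM in the Paneth cells and at 146, 136 and 133 in the non-Paneth cells, and Scamp5 fell by 1.83. The genes of the vacuolar proton pump, which acidifies granules and lysosomes, gave 2 rises and 5 falls of 18, and 0 rises and 15 falls with library totals only. The falls, 27.8% against 26.7% of all genes, were led by the membrane subunit gene Atp6v0a1, at 18.4, 19.3 and 18.3 scaled CPM in the Paneth cells and at 89.3, 89.2 and 75.1 in the non-Paneth cells. The rises, in Atp6v1b2 (0.60) and Atp6v1f (0.63), turned with library totals only, and there were 4 rises without Paneth replicate 1 or non-Paneth replicate 2.

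**Figure D3:**
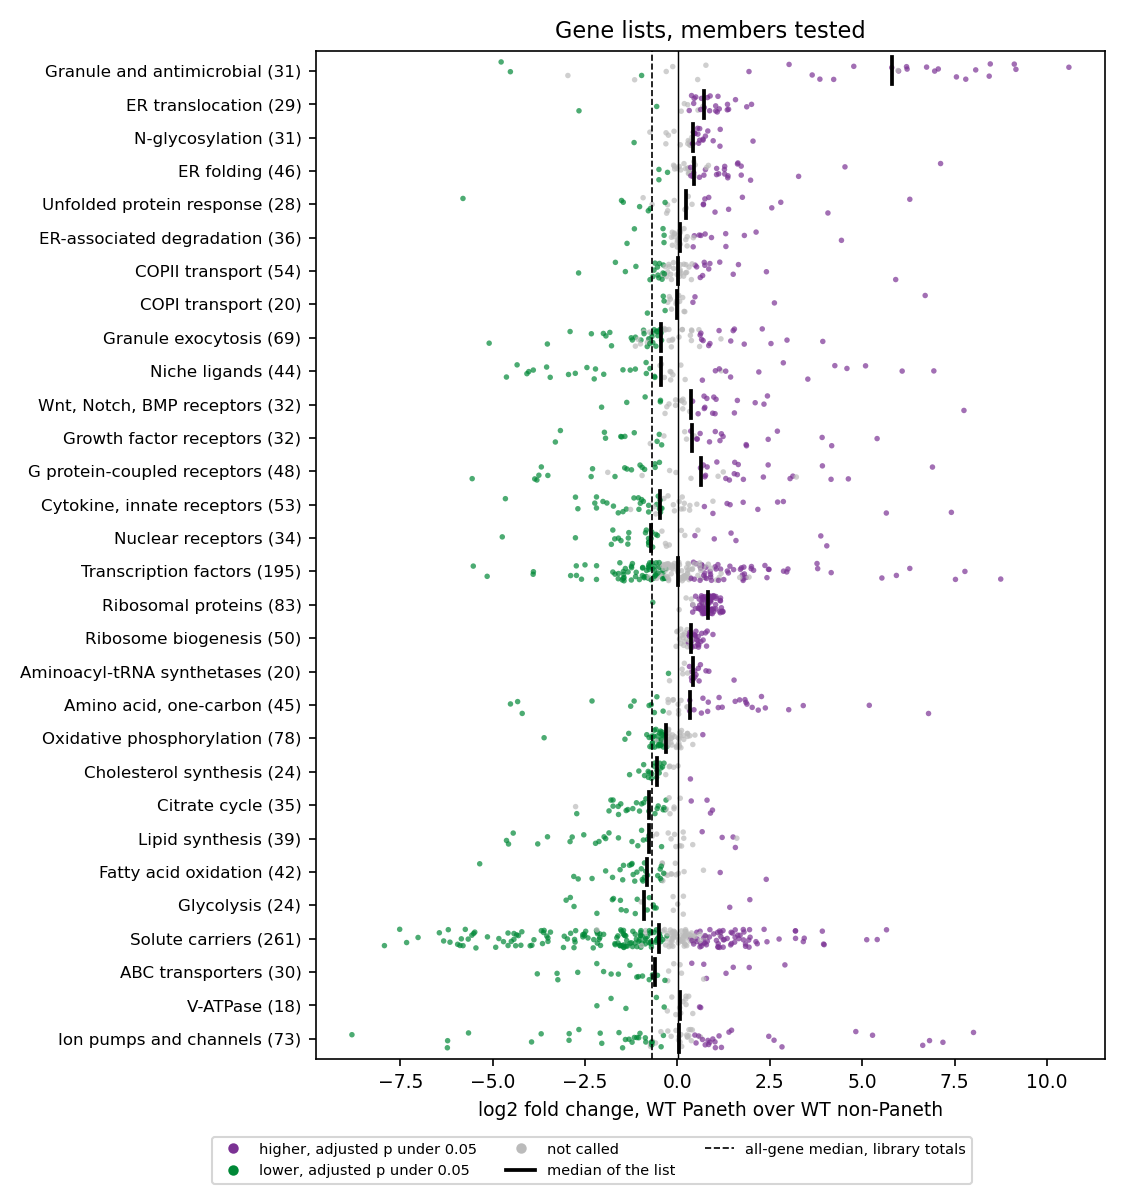
Log2 fold change, WT Paneth over WT non-Paneth, of every tested member of 30 gene lists (number tested in brackets), with a black bar at the median of each list, a solid line at the median of all genes (0.01) and a dashed line at that median with library totals only (−0.68). Purple and green points passed an adjusted p of 0.05, and grey points did not. The granule list has its median at 5.80, glycolysis, lipid and solute carrier lists have theirs below 0, and small positive medians such as that of N-glycosylation (0.43) turn with library totals only (-0.27).

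Of the signals that Paneth cells send to the niche, some were far higher in the Paneth libraries. The list of niche ligands gave 13 rises (29.5%) and 21 falls (47.7%) among 44 genes, with a median of -0.45. Of all genes 24.0% were higher and 26.7% lower. Wnt3, the Wnt ligand that sustains stem cells, was found at 72.5, 124 and 115 scaled CPM in the Paneth cells and at 2.03, 1.51 and 1.07 in the non-Paneth cells, with a log2 fold change of 6.08 (SE 0.321, adjusted p = 1.09e-08). Egf was found at 13.6, 28 and 22.6 scaled CPM in the Paneth cells and at 0.254, 0.755 and 0.801 in the non-Paneth cells, a log2 fold change of 5.09 (SE 0.411, adjusted p = 2.76e-07). For both, the lowest Paneth library was more than 10 times the highest non-Paneth library. The Notch ligands differed in size, with Dll4 at 33.1, 40.2 and 28.3 scaled CPM in the Paneth cells and at 12.7, 20.3 and 13.3 in the non-Paneth cells and Dll1 at 45.8, 33 and 33.5 scaled CPM in the Paneth cells and at 34.1, 39 and 32.3 in the non-Paneth cells. Dll4 had a log2 fold change of 1.13 (SE 0.2, adjusted p = 2.34e-04), and Dll1 one of 0.09, which did not pass the test and changed sign with library totals only and without Paneth replicate 1. The EGF family ligand gene Tgfa fell by 0.62 (adjusted p = 0.0634 without non-Paneth replicate 2), the chemokine gene Cx3cl1 by 2.95 and the cytokine gene Il18 by 3.90.

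Receptors of the Wnt, Notch and BMP pathways were higher in Paneth cells in 16 and lower in 5 of 32 cases, and with library totals only in 6 and 13, so that the balance turned. Their falls numbered 3 without non-Paneth replicate 2 or 3. For this and the other receptor lists the shares of all genes were 24.0% higher and 26.7% lower. Fzd9, a Wnt receptor better known from brain and bone, was found at 28.8, 45.8 and 43.8 scaled CPM in the Paneth cells and at 0.0636, 0.116 and 0.321 in the non-Paneth cells. The non-Paneth values of Fzd9 rest on between 1 and 6 counts per library, and its log2 fold change was 7.75 (SE 0.31, adjusted p = 2.04e-10). Fzd5, the Frizzled receptor known for Paneth cell maturation, lay lower, at 44, 49.5 and 52.5 scaled CPM in the Paneth cells and at 111, 145 and 121 in the non-Paneth cells, and Fzd4 fell by 2.05. The activin receptor gene Acvr1c had a log2 fold change of 2.44 and Notch4 one of 2.11. Notch1 had one of 0.41 (adjusted p = 0.021, and 0.0854 without Paneth replicate 1), a direction that turned with library totals only.

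Growth factor receptors were divided, with 16 higher and 11 lower of 32 (7 and 13 with library totals only, which turns the balance). Insrr, a relative of the insulin receptor that senses alkaline pH, was found at 23.9, 15.1 and 18.5 scaled CPM in the Paneth cells and at 0.254, 0.813 and 0.267 in the non-Paneth cells. Ephb3, which holds Paneth cells at the crypt base, was found at 148, 177 and 152 scaled CPM in the Paneth cells and at 35.6, 27 and 24.4 in the non-Paneth cells, a log2 fold change of 2.46 (SE 0.143, adjusted p = 5.91e-09). In contrast, Epha2 (-3.17), Epha1 (-1.97), the neuregulin receptor gene Erbb3 (-1.42), Egfr (-0.55) and Mertk (-3.30), a receptor for dying cells, were lower in Paneth cells. Of 48 G protein-coupled receptors and their partners 21 were higher and 18 lower, and with library totals only 12 and 21, which turns the balance. Acetylcholine is a known trigger of Paneth cell secretion, and the muscarinic receptor genes Chrm3 and Chrm1 were found at 19.4, 28.6 and 29.6 and at 13.4, 16.4 and 18.7 scaled CPM in Paneth libraries against 3.12, 4.01 and 1.76 and 2.35, 3.54 and 2.88 in non-Paneth libraries. The oestrogen receptor gene Gper1 rose by 3.05, and the nucleotide receptor gene P2ry2 fell by 3.80.

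Receptors for cytokines and microbial products were more often lower than higher, with 10 higher and 27 lower of 53 and a median of -0.47. Naip5, a sensor of flagellin, was found at 32.3, 29.6 and 24.4 scaled CPM in the Paneth cells and at 261, 199 and 98.8 in the non-Paneth cells. The interleukin 4 receptor gene Il4ra had a log2 fold change of -1.003 and Il11ra1 one of 1.78. Nod2, a sensor of peptidoglycan often named for Paneth cells, was found at 2.56, 2.47 and 1.42 scaled CPM in the Paneth cells and at 3.24, 3.66 and 2.83 in the non-Paneth cells, and its difference did not pass the test (-0.58, adjusted p = 0.111). Nuclear receptors were lower in 21 and higher in 6 of 34 cases, with a median of -0.70. The glucocorticoid receptor gene Nr3c1 was found at 40.8, 50.3 and 54.1 scaled CPM in the Paneth cells and at 110.3, 126 and 131 in the non-Paneth cells, a log2 fold change of -1.34 (SE 0.287, adjusted p = 0.00209). Nr1i3, the xenobiotic receptor Car, fell by 4.74 and the fatty acid receptor gene Ppara by 1.79, whereas the clock gene Nr1d2 rose by 1.45.

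Transcription factors held both directions, 28.7% higher and 32.3% lower beside 24.0% and 26.7% of all genes, that is 56 higher and 63 lower of 195, with a median of 0.01 (library totals only, 30 and 104). Bhlha15, or Mist1, which builds the secretory apparatus of serous cells, was found at 125, 177 and 182 scaled CPM in the Paneth cells and at 1.4, 2.09 and 2.62 in the non-Paneth cells. Its log2 fold change was 6.29 (SE 0.241, adjusted p = 1.66e-10), with no overlap of the fractions. The factors of the secretory lineage followed with smaller differences. Atoh1, which commits crypt cells to secretion, was found at 52.2, 94.9 and 94.1 scaled CPM in the Paneth cells and at 14.3, 18.5 and 12.1 in the non-Paneth cells, Gfi1 at 15.9, 22.9 and 17.6 scaled CPM in the Paneth cells and at 4.01, 3.19 and 2.88 in the non-Paneth cells and Spdef at 78.4, 82.1 and 91.7 scaled CPM in the Paneth cells and at 15.4, 20.3 and 13.1 in the non-Paneth cells. Sox9, which Paneth cells need to form, was found at 106, 139 and 128 scaled CPM in the Paneth cells and at 37.9, 38.5 and 32.5 in the non-Paneth cells. The log2 fold changes of Atoh1, Gfi1, Spdef and Sox9 were 2.42, 2.48, 2.37 and 1.78. All 4 genes are also expressed in goblet cells or progenitors. The libraries of the 2 fractions did not overlap for any of the 4, which also holds for 57.5% of all genes tested. Foxa3, a forkhead factor of endoderm, was higher by 2.46, Klf15 by 3.80 and Ets1 by 2.99.

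Other factors that rose are known from tuft cells. Pou2f3, the master factor of tuft cells, was found at 12.3, 18.8 and 27 scaled CPM in the Paneth cells and at 0.0636, 0.465 and 0.374 in the non-Paneth cells, and Spib, a factor of tuft and M cells, at 18.8, 41.2 and 54.7 scaled CPM in the Paneth cells and at 0.191, 1.86 and 0.374 in the non-Paneth cells. In the Paneth libraries both were lowest in replicate 1 and highest in replicate 3, the order of the tuft marker sum. The part of tuft cells in the differences of other genes was not tested.

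Factors of absorptive cells lay at the other end. Creb3l3 was found at 1.23, 11 and 1.89 scaled CPM in the Paneth cells and at 264, 249 and 245 in the non-Paneth cells, and Maf, a large Maf factor of mature enterocytes, at 1.52, 7.67 and 0.946 scaled CPM in the Paneth cells and at 138, 175 and 137 in the non-Paneth cells. The repressor genes Mxd1 and Hes2 had log2 fold changes of -3.90 and -3.90. Among the Paneth libraries Creb3l3 and Maf were highest in replicate 2, which also held the most enterocyte transcripts. The nuclear receptor Hnf4g, a driver of the enterocyte programme, fell by 2.76, and its widely expressed relative Hnf4a by 0.78, at 439, 401 and 445 scaled CPM in the Paneth cells and at 667, 750.4 and 786 in the non-Paneth cells. The intestinal factor gene Cdx2 fell by 0.39 (adjusted p = 0.0979 without non-Paneth replicate 2 and 0.0542 without replicate 3) and the antioxidant regulator gene Nfe2l2 by 1.46.

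**Figure D4:**
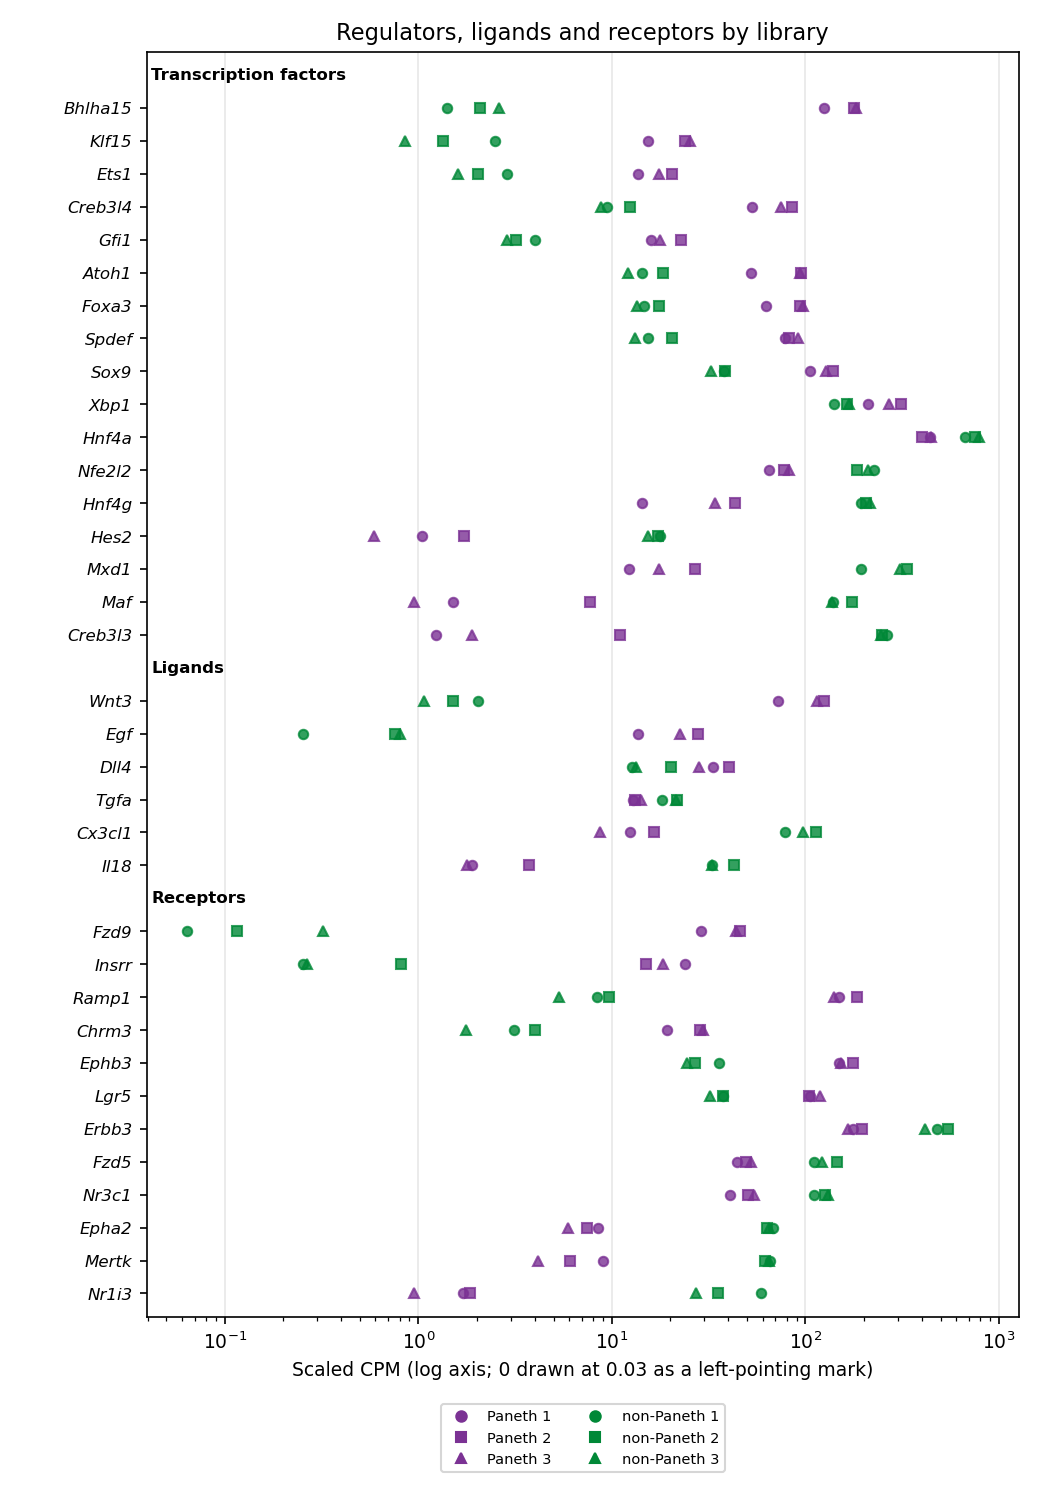
Scaled CPM (horizontal log axis) of transcription factors, ligands and receptors named in the text, with 1 symbol per replicate in purple for the 3 WT Paneth and in green for the 3 WT non-Paneth libraries. Bhlha15, Wnt3, Egf, Fzd9 and Insrr lie far higher in all Paneth libraries, Creb3l3 and Maf lie far lower with Paneth replicate 2 highest among the Paneth libraries, and Dll4, Tgfa and Xbp1 lie close together.

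The Hnf4 motif was the one whose carriers leaned most to 1 side. It was found in 156 of 32851 promoter windows (0.475%), and of the 61 tested genes that carry it 36 were lower (59.0%) and 8 higher (13.1%) in Paneth cells, where 26.7% and 24.0% of all genes were. Slc3a1, the heavy subunit of a cystine and dibasic amino acid transporter, and Sec16b are 2 carriers that fell, and the windows below show the motif in capitals, reversed in Sec16b.
Slc3a1 (chr17:85028288-85028336, plus strand): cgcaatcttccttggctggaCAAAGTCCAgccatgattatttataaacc
Sec16b (chr1:157526116-157526164, plus strand): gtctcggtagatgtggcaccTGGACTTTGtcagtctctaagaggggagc
Slc3a1 was found at 5.7, 17.1 and 6.03 scaled CPM in the Paneth cells and at 179.5, 215 and 195 in the non-Paneth cells, with Paneth replicate 2 the highest of the 3. Wnt3 also has the motif, in the transcribed part of its window, and was higher, so the share describes the group and not each gene. Whether Hnf4 factors bind at these letters was not tested.

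The machinery of translation was higher in Paneth cells by modest amounts that depend on the scale. For its lists, the shares of all genes were 24.0% higher and 26.7% lower. Of 83 genes of cytosolic ribosomal proteins 77 were higher and 1 was lower, with a median of 0.82, but with library totals only 5 were higher and 2 lower. They summed to 66200, 55276 and 47674 scaled CPM in the Paneth libraries and to 35527, 29859 and 29123 in the non-Paneth libraries. Replicate 1 was the highest of each fraction, and without Paneth replicate 1 the count of members higher was 77 and the median 0.70. Only 3 of the 83 were called in the same direction in WT and GRKO mice, beside 26.6% of all genes. Genes of ribosome biogenesis were higher in 29 of 50 cases with none lower, which turned to none higher and 22 lower with library totals only. Of the 20 cytosolic aminoacyl-tRNA synthetases, which charge tRNAs, 14 were higher and 1 lower (1 and 8 with library totals only, which turns the balance). Wars1, for tryptophan, had the largest rise of this list, at 194, 333 and 256 scaled CPM in the Paneth cells and at 79.4, 104 and 87.1 in the non-Paneth cells, and rose on either scale.

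Amino acid synthesis and one-carbon metabolism held some rises far beyond the shift between scales. Of 45 genes 23 were higher (51.1%) and 11 lower (24.4%), beside 24.0% and 26.7% of all genes. With library totals only the counts were 15 and 23, which turns the balance. Pycr1, the mitochondrial enzyme for the last step of proline synthesis, was found at 56, 78.8 and 62.5 scaled CPM in the Paneth cells and at 2.1, 1.8 and 1.5 in the non-Paneth cells, a log2 fold change of 5.19 (SE 0.211, adjusted p = 2.33e-10). Aldh1l2, a mitochondrial folate enzyme, was found at 7.03, 26.8 and 20.9 scaled CPM in the Paneth cells and at 0.0636, 0.29 and 0.107 in the non-Paneth cells, a log2 fold change of 6.80 (SE 0.716, adjusted p = 1.16e-05). Asns, which makes asparagine, was found at 122, 215 and 173 scaled CPM in the Paneth cells and at 31.2, 31.4 and 35.2 in the non-Paneth cells. Among the Paneth libraries replicate 2 was the highest for each of these and replicate 1 the lowest. The serine pathway genes Psat1 (2.02) and Phgdh (1.56), the folate gene Mthfd2 (1.88) and the cystathionine synthase gene Cbs (3.41) rose as well. The members that fell include the alanine transaminase gene Gpt, at 6.74, 18.6 and 3.67 scaled CPM in the Paneth cells and at 197, 187 and 189 in the non-Paneth cells, the arginase gene Arg2 (-4.20) and the tryptophan dioxygenase gene Ido1 (-4.52).

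The amino acid response element TGATGCAA was found in 294 of 32851 windows (0.895%). Of 68 tested genes that carry it 25 were higher (36.8%) and 21 lower (30.9%), beside 24.0% and 26.7% of all genes. The motif is known as a binding site of Atf4, which induces genes for amino acid supply. Carriers on these lists are shown with the motif in capitals, reversed where it reads TTGCATCA, because they are carriers that rose. Slc7a11 holds the motif at 2 places, and the window of 1 is shown.
Pycr1 (chr11:120643824-120643871, minus strand): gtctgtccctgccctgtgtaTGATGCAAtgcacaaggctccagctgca
Chac1 (chr2:119351029-119351076, plus strand): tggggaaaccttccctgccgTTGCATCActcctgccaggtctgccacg
Herpud1 (chr8:94386297-94386344, plus strand): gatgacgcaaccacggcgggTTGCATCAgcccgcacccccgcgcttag
Nupr1 (chr7:126625553-126625600, minus strand): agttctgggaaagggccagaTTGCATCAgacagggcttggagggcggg
Slc50a1 (chr3:89270732-89270779, minus strand): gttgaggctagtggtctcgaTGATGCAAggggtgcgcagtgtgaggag
Slc7a11 (chr3:50443652-50443699, minus strand): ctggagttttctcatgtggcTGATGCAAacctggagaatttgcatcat
They include the stress regulator gene Nupr1 and the sugar transporter gene Slc50a1. All 6 of these genes were higher in Paneth cells, with log2 fold changes of 5.19, 4.07, 2.13, 6.96, 1.802 and 3.92 in the order shown. The glutathione-degrading enzyme gene Chac1 was found at 14.6, 13 and 3.08 scaled CPM in the Paneth cells and at 0.509, 0.929 and 0.374 in the non-Paneth cells, and the cystine transporter gene Slc7a11 at 0.759, 7.42 and 2.01 scaled CPM in the Paneth cells and at 0.127, 0.232 and 0.267 in the non-Paneth cells, both uneven between Paneth libraries. The serine and alanine transporter gene Slc1a4 carries the motif across its start. Other carriers were lower, such as the transaminase gene Got1 (-1.26) and the transporter gene Slc7a7 (-2.56), so carriers were found in both directions. Atf4 itself had a log2 fold change of 0.85 (SE 0.128, adjusted p = 5.17e-05), a call lost with library totals only (0.15, adjusted p = 0.372).

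Energy and lipid metabolism lay lower in the Paneth fraction on either scale. For the lists of this paragraph, the shares of all genes were 26.7% lower and 24.0% higher. Glycolysis gave 16 falls and 2 rises among 24 genes (median -0.90), the citrate cycle and its neighbours 24 and 4 among 35 (-0.77, with 2 rises without Paneth replicate 2 or 3), and fatty acid oxidation 28 and 2 among 42 (-0.83). Pfkp, the platelet form of phosphofructokinase, was found at 21.6, 46.9 and 35.7 scaled CPM in the Paneth cells and at 237, 258 and 278 in the non-Paneth cells. Gapdh, often taken as a reference gene, was found at 153, 164 and 153 scaled CPM in the Paneth cells and at 477, 410.2 and 480.0 in the non-Paneth cells. Mdh2 and Ogdh, of the citrate cycle, had log2 fold changes of -1.74 and -1.799. The acyl-CoA synthetase gene Acsl5, which readies fatty acids for use, fell by 2.80, from 1055, 988 and 1272 scaled CPM in the non-Paneth to 125, 199 and 151 in the Paneth libraries. Members that rose include Acox2 (2.40), Hk1 (1.42) and Acly (0.80), which makes acetyl-CoA for synthesis, and the last 2 were not called with library totals only.

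Respiratory chain genes showed smaller differences. For the lists that follow, the shares of all genes were again 26.7% lower and 24.0% higher. Of 78 nuclear genes of oxidative phosphorylation 34 were lower and 1 higher (median -0.31), and with library totals only 73 and 0. Without non-Paneth replicate 1 the count of falls was 17 and the median -0.16, and without non-Paneth replicate 3 the count was 21. All 7 mitochondrial genes with enough counts were lower, with a median of -1.25, and -1.64 without Paneth replicate 1, the library with the highest mitochondrial share of the Paneth cells. The other 6 protein-coding genes of the mitochondrial genome were not tested. Cholesterol synthesis gave 18 falls and 1 rise of 24, and lipid synthesis and lipoprotein assembly 22 and 4 of 39. Mttp, which loads lipid onto chylomicrons, was found at 35.5, 116 and 50.04 scaled CPM in the Paneth cells and at 1291, 1276 and 1798 in the non-Paneth cells, and Mogat2, which rebuilds triglycerides, fell by 4.62. These genes belong to absorbing enterocytes, whose marker sum moves the same way, and the part of the enterocyte share in them was not tested.

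Transporters were more often lower than higher. Of 393 solute carriers, 261 were tested. Of these 131 were lower (50.2%) and 68 higher (26.1%), with a median of -0.50, beside 26.7% and 24.0% of all genes. Among those that rose, Slc1a4, a carrier of serine, alanine and cysteine, was found at 84.9, 154 and 114 scaled CPM in the Paneth cells and at 3.69, 3.95 and 2.51 in the non-Paneth cells, a log2 fold change of 5.12 (SE 0.244, adjusted p = 1.44e-09). Slc43a1, for large neutral amino acids, was found at 12.8, 16.3 and 16.3 scaled CPM in the Paneth cells and at 0.254, 0.465 and 0.321 in the non-Paneth cells, and Slc16a7, for pyruvate and lactate, at 12, 22.6 and 23 scaled CPM in the Paneth cells and at 0.445, 0.581 and 0.107 in the non-Paneth cells. The magnesium exporter gene Slc41a1 was found at 46.4, 94.7 and 73.9 scaled CPM in the Paneth cells and at 7.76, 8.25 and 7.37 in the non-Paneth cells. The amino acid carrier gene Slc36a4 (3.19) and the vesicular nucleotide carrier gene Slc17a9 (2.75), which loads ATP into secretory vesicles, rose too. All 6 were named for fractions that do not overlap, and Paneth replicate 1 was the lowest Paneth library for each.

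Among the carriers with the largest falls at 10 CPM or more, the nucleoside carrier Slc28a1 was found at 0, 0.866 and 0.355 scaled CPM in the Paneth cells and at 94.7, 54.1 and 60.05 in the non-Paneth cells, and the cation and toxin exporter Slc47a1 at 0.0949, 0.371 and 0 scaled CPM in the Paneth cells and at 31.1, 25 and 19.3 in the non-Paneth cells. The vitamin C carrier Slc23a1, the manganese exporter Slc30a10 and the citrate carrier Slc13a2 had log2 fold changes of -7.02, -6.44 and -6.20. Paneth values of these genes rest on few counts, and in Slc13a2 and Slc5a12 most of them came from replicate 2. The sugar carrier Slc5a1, a marker of enterocytes, was found at 73.6, 129.9 and 84.7 scaled CPM in the Paneth cells and at 997, 1125 and 1382 in the non-Paneth cells.

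Of 30 ABC transporters 17 were lower (56.7%) and 7 higher (23.3%), beside 26.7% and 24.0% of all genes. The sterol exporter genes Abcg5 and Abcg8, which work as a pair, fell together by 3.79 and 3.26, and the conjugate exporter gene Abcc2 by 3.23. Abcc4, which exports cyclic nucleotides, was found at 12.3, 18.8 and 18 scaled CPM in the Paneth cells and at 2.1, 2.03 and 2.35 in the non-Paneth cells. Ion pumps and channels gave 24 rises (32.9%) and 27 falls (37.0%) of 73 (11 and 38 with library totals only). Atp2a3, a calcium pump of the ER, was found at 381, 541 and 603 scaled CPM in the Paneth cells and at 80.9, 122 and 71.3 in the non-Paneth cells, and Kcnma1, the large calcium-activated potassium channel, at 10.2, 16.7 and 14.9 scaled CPM in the Paneth cells and at 0.127, 0.523 and 0.748 in the non-Paneth cells. Water and glycerol channels lay lower, with Aqp3 at 0, 0.618 and 0 scaled CPM in the Paneth cells and at 13.2, 16.3 and 14.2 in the non-Paneth cells and Aqp7 at a log2 fold change of -5.65.

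**Figure D5:**
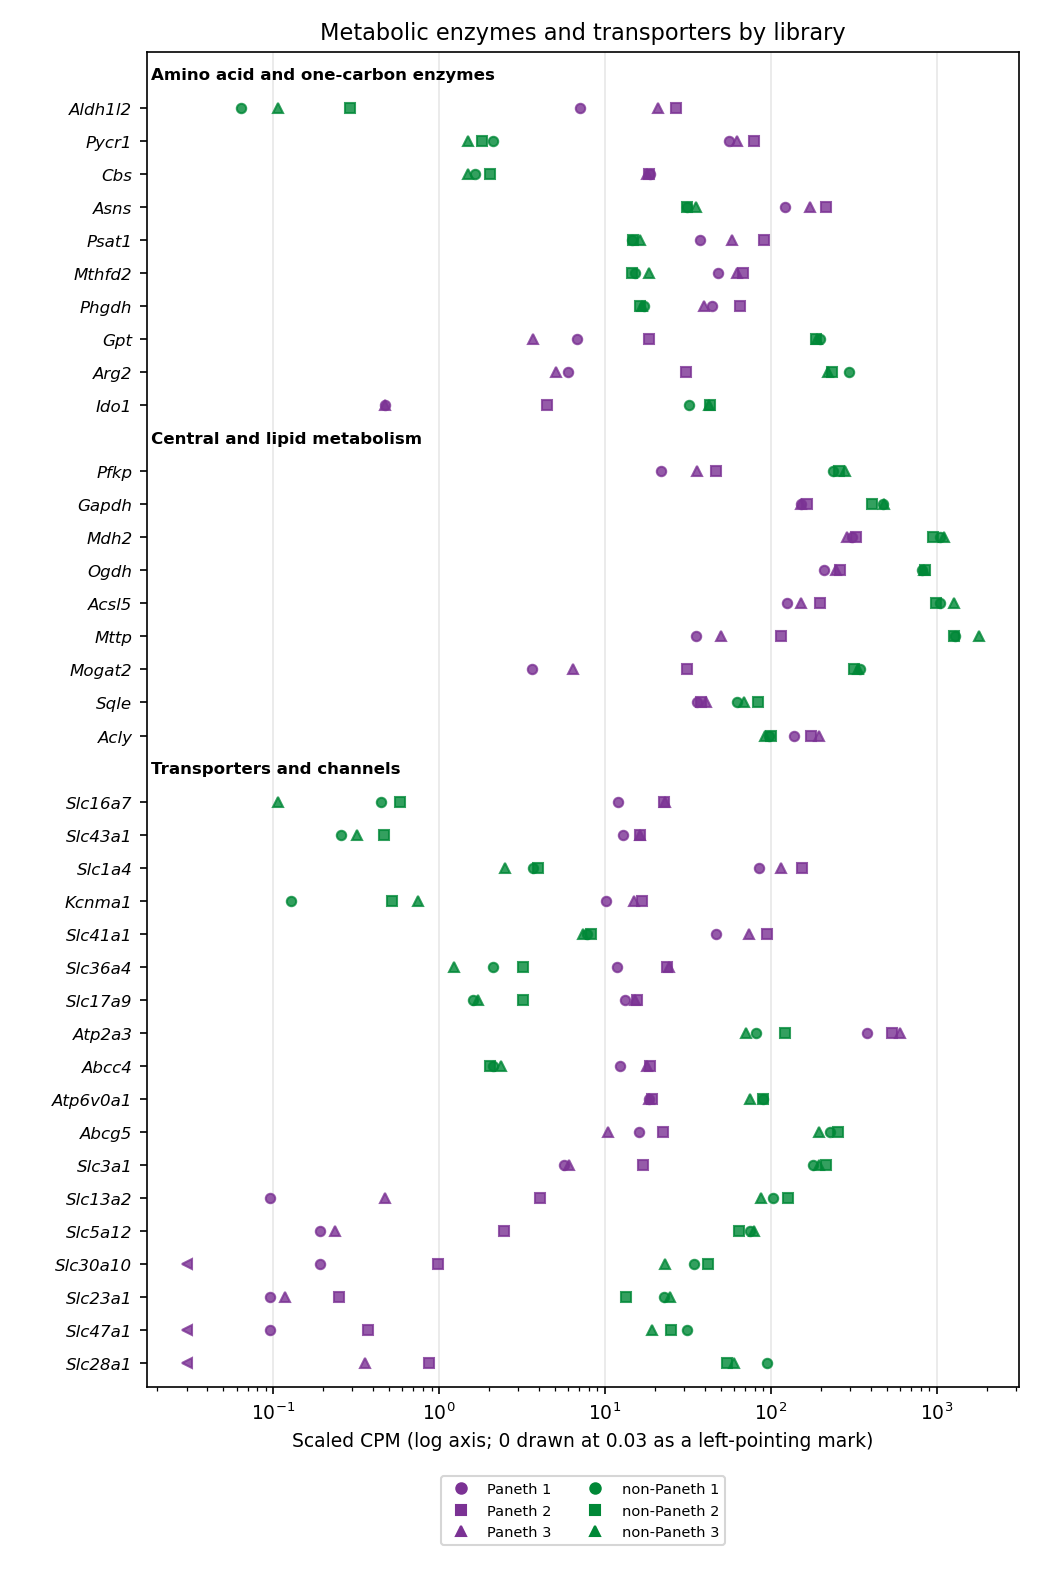
Scaled CPM (horizontal log axis) of metabolic enzymes and transporters named in the text, with 1 symbol per replicate in purple for the 3 WT Paneth and in green for the 3 WT non-Paneth libraries; a value of 0 is drawn at 0.03. Amino acid synthesis genes and a few carriers lie higher in all Paneth libraries, absorptive carriers lie lower by several log2 units, and Paneth replicate 2 is the highest Paneth library for most absorptive genes.

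Lysosome and autophagy genes, 25.6% higher and 30.5% lower and so near the shares of all genes (24.0% and 26.7%), gave 21 rises and 25 falls of 82 (8 and 56 with library totals only, and 15 falls without non-Paneth replicate 2). The protease gene Lgmn was found at 52.5, 209 and 139 scaled CPM in the Paneth cells and at 15.7, 21.1 and 13.7 in the non-Paneth cells, uneven between Paneth libraries, and the autophagy genes Atg7 (1.54) and Gabarapl1 (1.68) rose, while the lipase gene Lipa fell by 2.98 and the autophagy receptor gene Optn by 2.68. Of 45 genes of mTOR and growth signalling 7 were higher (15.6%) and 14 lower (31.1%), with library totals only 2 and 35, and the falls numbered 8 without Paneth replicate 3 and 7 without any 1 of the non-Paneth libraries. Eif4ebp1, which restrains translation, rose by 1.60, and the arginine sensor gene Castor2 fell by 4.00, at 2.09, 3.83 and 3.19 scaled CPM in the Paneth cells and at 53.7, 45.4 and 44.9 in the non-Paneth cells.

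The GRKO mice gave a second pair of fractions from other animals. There 5116 genes differed between Paneth and non-Paneth cells. A total of 3475 genes, 26.6% of those tested, were called in the same direction in both genotypes, which is 52.5% of the calls in WT and 67.9% of those in GRKO mice, and 154 were called in opposite directions. The difference between the fractions itself differed between the genotypes for 2445 genes (18.7%), and for 4345 at an unadjusted p under 0.05. The effects on Bhlha15, Tmed6, Wnt3, Pycr1 and Slc1a4 were 5.95, 5.36, 5.67, 5.01 and 4.83 in GRKO mice, and no difference from WT passed the test (adjusted p of the difference between 0.219 and 0.7). These 5 are examples with large effects in WT mice and do not stand for the rest. Of the 193 genes named and tested, 47 had a difference that passed, and in 7 the effects had opposite signs. Of the 10 stem markers, all called higher in WT mice, 4 were called in the same direction in GRKO mice. Of the tuft genes, 2 named above had smaller effects in GRKO mice, Pou2f3 at 2.26 (difference 3.67, adjusted p = 0.0188) and Trpm5 at 2.34 (difference 2.95, adjusted p = 0.0425). The difference for Spib did not pass (adjusted p = 0.0742). Vil1 fell by 0.58 in GRKO against 2.51 in WT mice (adjusted p of the difference = 1.67e-04). Sst had opposite signs, 2.99 in WT and -2.16 in GRKO mice (adjusted p of the difference = 6.46e-04).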

How the data were processed

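Counts per gene were deposited by the authors as raw values for 55414 genes. Per the labels and the methods of the study, reads of stranded single-end libraries were trimmed with Trimmomatic 0.39, aligned to mm39 with STAR 2.7.10a and counted by STAR. Genes were filtered by expression and tested with edgeR 4.0.16 (R 4.3.3) in a quasi-likelihood fit of all 12 libraries with 4 group means, TMM factors and Benjamini-Hochberg adjustment at 5%. Fold changes of genes without counts in 1 fraction depend on the prior count. The script was tested on simulated data. Alternatives used other scalings, filters, DESeq2 1.42.0, the WT libraries only, a replicate block and each library left out. Same-numbered Paneth and non-Paneth libraries deviated together (r = 0.349, 0.229 and 0.238). The numbers were taken as pairs in the replicate block only. The main fit, which gave the values reported here unless another setting is named, left the pairing out. The labels do not say whether replicates are separate animals. The methods of the study give an n for wild-type mice that equals the number of Paneth libraries. They do not say that each library is 1 animal, so p-values may measure technical spread only. Members and lists were chosen with earlier results of these data known. Named genes had at least 10 CPM, no overlap and the largest changes of their list (50 CPM over all genes), or were picked for their role. Genes shown for a promoter motif and the other named genes outside that rule were chosen after their values were seen.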

Additional observations from a re-analysis of the deposited data

Results flagged for a closer look

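Of the 193 genes named above and tested, 47 had a Paneth against non-Paneth effect that differed between WT and GRKO mice by the interaction test of edgeR, with adjusted p between 1e-05 and 0.0468, where 2445 of all 13057 genes tested (18.7%) did. The value in brackets is the WT minus the GRKO log2 fold change. In 36 of the 47 the effect was of the same sign and smaller in GRKO mice. Many of the 193 were named for large changes in WT mice, which by itself favours a smaller effect in the other genotype, so nothing is read from these counts. Among these, the genes lower in Paneth cells were Abcc2 (-3.15), Abcg5 (-1.62), Abcg8 (-1.54), Acsl5 (-1.32), Castor2 (-2.33), Cx3cl1 (-1.01), Epha1 (-1.09), Epha2 (-1.93), Erbb3 (-0.79), Fzd4 (-1.38), Gapdh (-0.75), Gdpd2 (-2.54), Got1 (-0.64), Lipa (-1.95), Mdh2 (-0.62), Mttp (-1.67), Mxd1 (-2.50), Naip5 (-2.30), Ogdh (-1.30), Optn (-1.83), P2ry2 (-2.27), Pcsk5 (-1.49), Pfkp (-1.42), Scamp5 (-0.88), Sec23a (-1.34), Slc3a1 (-1.40), Slc5a1 (-1.19), Slc7a7 (-1.38), Tfg (-1.25) and Vil1 (-1.93). Those higher in Paneth cells were Cbs (0.91), Lgr5 (0.77), Phgdh (1.08), Pou2f3 (3.67), Slc43a1 (1.21) and Trpm5 (2.95). The effect was of the same sign and larger in GRKO mice for Acox2 (-2.01), Edem2 (-0.58), Klf15 (-2.06) and P4hb (-0.97). The fitted effects had opposite signs for Atp6v0a1 (-2.24), Ddit3 (-2.10), Il4ra (-1.37), Notch1 (0.86), Sec16b (-1.45), Sst (5.15) and Syvn1 (-1.11). The villin-driven deletion and any difference between the sorts of the 2 genotypes cannot be told apart in these libraries. Groups of 3 libraries were too small for the search for single outlying libraries.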

How the results depend on the processing

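The scale had the largest effect on the counts. With library totals only 1097 genes were higher and 7895 lower, against 3133 and 3491. The total of 6624 lay between 5936 and 6769 with TMM factors fitted without Lyz1 and the Defa genes, RLE factors, DESeq2, either other filter, or the WT libraries only, with or without a block. Leaving out 1 library gave 5878 to 6498 calls in all, 2793 to 3393 higher and 2740 to 3451 lower. With the replicate number as a block there were 6952 calls, and of the genes named above 5 gained the call and 0 lost it. The block changed no other call among them, while the WT libraries only with the block lost Lct, Mogat2 and Reg1. The difference between the genotypes passed for 955 genes at a false discovery rate of 1%, and for 2447 to 3028 with other scalings, DESeq2 or the block. Leaving out libraries was not run for it.

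Of 193 genes named above, 163 kept direction and side of the threshold under every alternative. With library totals only the fold change turned to -0.12 for Atp6v1b2, -0.075 for Atp6v1f, -0.66 for Calr, -0.29 for Creld2, -0.59 for Dll1, -0.24 for Hspa5 and -0.28 for Notch1. The calls of Acly, Atf4, Dll4, Dnajc3, Hk1, P4hb and Xbp1 were lost there. Other changes of sign were in genes that had not passed the test. Calr was at -0.0017 without a filter and between -0.0274 and 0.23 with 1 library left out, below 0 without Paneth replicate 2 or 3. Dll1 lay between -0.0824 and 0.28, below 0 without Paneth replicate 1. Hsp90b1 was at 0.0316 with at least 10 counts and between -0.19 and 0.14, above 0 without Paneth replicate 1 or non-Paneth replicate 3. Reg3g lay between -1.38 and 0.19, above 0 without Paneth replicate 1 or non-Paneth replicate 2. Syvn1 was at 0.0271 with at least 10 counts and between -0.17 and 0.0507, above 0 without non-Paneth replicate 1 or 2. The causes were not tested. At this depth, genes with few counts in 1 fraction have an uncertain fold change.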
